A study of Homo sapiens with 2 samples.

Results

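The core circadian clock loop was examined in the hNCI-H716 line, which comes from a human colorectal adenocarcinoma of the cecum and serves as an L-cell model. The 10 genes were taken by symbol from the 19989 genes of the expression table, and all 10 had a value in both libraries. They are the activators ARNTL, CLOCK and NPAS2, the repressors PER1, PER2, PER3, CRY1 and CRY2, and the REV-ERB genes NR1D1 and NR1D2. The cells attached to Matrigel for 24 h and then spent 48 h in DMEM with serum and either low (5.5 mM) or high (25 mM) glucose. Polyadenylated RNA was sequenced from 1 library per glucose concentration. With no replicate, each difference compares 2 libraries, and no p-value was computed. Neither synchronization nor the clock time of harvest is stated for these libraries in the sources used here, so glucose concentration, culture and time of harvest cannot be told apart.

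Transcripts of every clock arm were present in both libraries, at 4.34 to 43.5 CPM (counts per 1000000 counts of the library), and 7 of the 10 genes had a log2 ratio of high to low glucose whose 95% interval held 0. The interval left out 0 for the other 3, a share near the 31.7% of genes averaging 1 CPM or more for which it did, and for genes of like CPM that share was 23.4%. PER3 had the ratio farthest from 0, 1.51-fold lower in the high glucose library. ARNTL was 1.20-fold higher and PER1 was 1.19-fold lower in that library, both at the edge of counting error.

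In the mammalian clock, BMAL1, the product of ARNTL, pairs with CLOCK or its relative NPAS2 and switches on genes that carry E-boxes. Among those genes are the PER and CRY repressors, whose proteins return to the nucleus and silence their own activators. In a second loop, the REV-ERB receptors repress ARNTL through elements that the ROR receptors bind as activators. In intestinal L-cells this clock has been linked to the daily rhythm of glucagon-like peptide-1 release.

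The elements of these loops can be read in the promoters of the genes themselves, and the stretches that hold them are shown here because they hold the letters that the factors of each loop are known to bind. RefSeq promoter windows (GRCh38.p14), from 250 bases before to 50 bases after a transcription start site, were found for all 10 genes, ARNTL under its newer symbol BMAL1, with 15 windows in all. They were searched on both strands for the E-box CACGTG, a variant E-box CACGTT, the D-box TTANGTAA, the cAMP response element TGACGTCA, and a REV-ERB and ROR element, taken as GGTCA preceded by A, A, any base, T and any base. No motif overlapped another in these windows. Sequences run 5′ to 3′ on the strand of the gene with the match in capitals, and a match on the opposite strand appears as its reverse complement.

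ARNTL, REV-ERB and ROR element: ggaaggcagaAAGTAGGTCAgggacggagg
PER1, E-box: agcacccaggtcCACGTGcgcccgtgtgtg
NR1D2, E-box farther from the start: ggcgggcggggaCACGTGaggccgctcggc
NR1D2, E-box nearer to the start: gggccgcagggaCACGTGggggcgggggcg
PER2, variant E-box: ggcgcgcgcggtCACGTTttccactatgtg
CRY1, variant E-box: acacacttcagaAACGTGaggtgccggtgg
CRY2, variant E-box: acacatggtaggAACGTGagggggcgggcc
NR1D1, variant E-box: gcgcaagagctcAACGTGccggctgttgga
PER3, D-box: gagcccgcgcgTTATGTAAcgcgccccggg
PER2, D-box: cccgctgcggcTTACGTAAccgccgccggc
NR1D2, D-box: gtgacgcggcaTTACATAAtgggcgctgag
CLOCK, variant E-box: tcaccactcgggCACGTTtggagcagcgcc
CLOCK, REV-ERB and ROR element: ctaggccttgTGACCCACTTtattcctgtc

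These are all 13 matches found. An E-box of either form was in 7 of the 15 windows, 1 each of 7 genes, against 12.2% of all 35116 RefSeq windows of this length. Counted by gene, it was in 7 of the 10 genes, 5 of which have 2 windows, against 14.5% of the 27305 genes with any number of windows. The canonical form was in the windows of PER1 (chr17:8152560-8152589, minus strand, 173 bases before the start) and NR1D2, where it occurred at 155 and 105 bases before the start (chr3:23945954-23945983 and chr3:23946004-23946033, plus strand). Of all windows, 7.26% held it. The variant form was in those of CLOCK (chr4:55546102-55546131, minus strand), PER2 (chr2:238288790-238288819, minus strand), CRY1 (chr12:107093621-107093650, minus strand), CRY2 (chr11:45847275-45847304, plus strand) and NR1D1 (chr17:40100740-40100769, minus strand), against 5.34% of all windows. The D-box, which DBP, TEF and HLF bind, was in PER3 (chr1:7784103-7784132, plus strand), PER2 (chr2:238288595-238288624, minus strand) and NR1D2 (chr3:23945916-23945945, plus strand), against 2.18% of all windows. The REV-ERB and ROR element was in ARNTL (chr11:13277807-13277836, plus strand), beginning at base 28 after the start, and in CLOCK (chr4:55546130-55546159, minus strand), against 0.581% of all windows. The cAMP response element was in 0 of the 15 windows, against 1.85% of all, and NPAS2 held none of these motifs. Against the GENCODE v29 transcripts of the same gene (GRCh38), the matches in ARNTL and CRY1 and the D-box of PER2 lay in exons, those in PER3 and NR1D1 upstream of the gene, and the other matches in introns of longer transcripts. A match describes letters in a window and shows neither binding nor its absence.

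**Figure D1:**
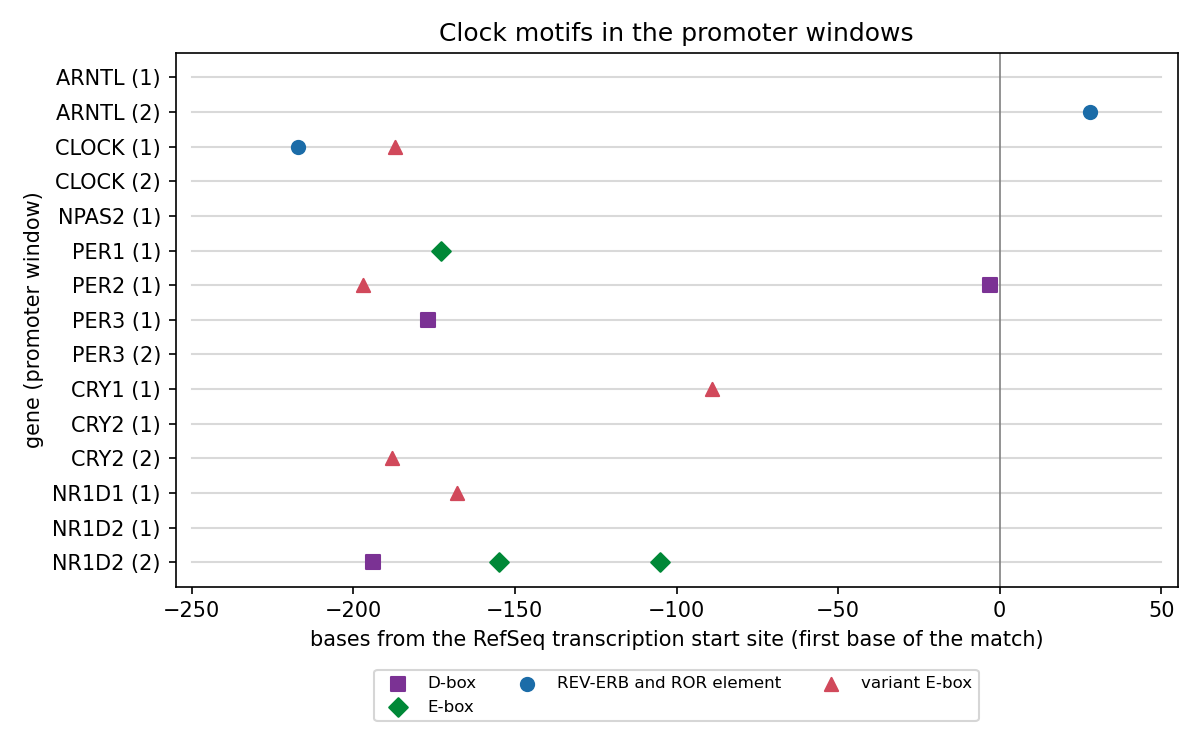
Positions of motif matches in the 15 RefSeq promoter windows of the 10 clock genes, with bases from the transcription start site on the x axis and 1 line per window (numbered within a gene) on the y axis. E-box forms appear in 7 genes, the D-box in PER2, PER3 and NR1D2, and the REV-ERB and ROR element in ARNTL and CLOCK.

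The low glucose library held 21757825 estimated counts and the high glucose library 19456571, so a count of 0 allows up to 0.138 and 0.154 CPM (3 counts of the total). Levels are CPM after trimmed mean of M-values (TMM) scaling, with 95% Wilson intervals, and log2 ratios carry exact binomial intervals. All intervals cover counting error only. The 10 genes rested on 85 to 892 estimated counts per library. The L-cell identity of the line was checked on marker genes. Of 8 L-cell and enteroendocrine markers, 6 were at or above 1 CPM, led by GCG at 1954 CPM in the low and 1808 CPM in the high glucose library, while PYY and NEUROD1 had no value in the table. Among 7 epithelial markers, KRT8 and KRT18 were well expressed, but KRT20 and CDH1 rested on at most 3 counts in either library. The intervals of VIL1 (log2 ratio 0.61, 0.37 to 0.85), CDX2 (0.33), KRT18 (0.22) and KRT8 (0.11) lay above 0, and the summed level of the 7 was 498 CPM in low and 563 CPM in high glucose. The L-cell markers went both ways, with PCSK1 (0.11, 0.08 to 0.15) and SCGN (0.27, 0.06 to 0.48) above 0 and GCG (-0.11), CHGA (-0.11) and CHGB (-0.06) below, and their sum, to which GCG gave the largest part, was 4270 and 4087 CPM. The part of these marker differences in the clock gene values was not tested. Of 8 markers of immune, stromal and endothelial cells, CD68 and COL1A2 reached 1 CPM. PTPRC, CD3E and PDGFRB had no value in the table, and the summed level of the other 5 was 18.9 CPM in the low and 18.7 CPM in the high glucose library. In bulk RNA, fewer cells that express a gene and less RNA per cell cannot be told apart.

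ARNTL, which encodes BMAL1 (ENSG00000133794.17, plus strand of chromosome 11, 13276652 to 13387266 of GRCh38), had a level of 12.2 CPM at low glucose (10.8 to 13.8, 265 estimated counts) and one of 14.7 CPM at high glucose (13.1 to 16.5, 286 estimated counts). On the log2 scale the high glucose library exceeded the low one by 0.27 (0.02 to 0.51). This was the highest ratio of the 10 genes, and 5.57% of the 5803 genes within the same range of mean CPM (4.36 to 42.3) had a ratio as high or higher.

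CLOCK (minus strand of chromosome 4, 55427903 to 55547138), the usual partner of BMAL1, was at 41.1 CPM at low glucose (38.5 to 43.8) and 43.5 CPM at high glucose (40.6 to 46.5), with a log2 ratio of 0.08 (-0.06 to 0.22). NPAS2 (plus strand of chromosome 2, 100820152 to 100996829), which can stand in for CLOCK, was at 4.34 CPM (3.54 to 5.29) and 4.37 CPM (3.53 to 5.39), with a log2 ratio of 0.01 (-0.43 to 0.45). The intervals of either partner overlapped between the libraries. For NPAS2 they were wide, since it rested on 94 and 85 estimated counts. Summed over the 3 activators, the level was 57.6 CPM in the low and 62.5 CPM in the high glucose library, a log2 ratio of 0.12 (0.0033 to 0.23). Without ARNTL the summed ratio was 0.08 (-0.06 to 0.21). Such sums, here and for the arms below, were not among the planned results. Of single genes averaging at least 10 CPM, 38.4% had an interval off 0.

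The PER genes, whose products form the repressor complex with the cryptochromes, had log2 ratios from -0.59 (PER3) to 0.03 (PER2). PER3 (ENSG00000049246.14, plus strand of chromosome 1, 7784320 to 7845177) was at 8.99 CPM at low glucose (7.80 to 10.3, 195 estimated counts) and 5.96 CPM at high glucose (4.96 to 7.14, 116 estimated counts). The intervals of the libraries did not overlap, and the log2 ratio was -0.59 (-0.94 to -0.25). Of the 5803 genes in the range of the clock genes (mean of 4.36 to 42.3 CPM), 60 (1.03%) had a ratio as low or lower. PER3 averaged 7.48 CPM, toward the lower end of that range, and genes of its own level alone were not compared. Exons of PER3 share 868 bases, 10.7% of its exonic length, with UTS2 on the opposite strand, and the library kit does not mark strand. UTS2 itself was near the floor, at 0.196 CPM in the low glucose library and, with 0 counts, at the 0.0121 CPM that a fixed prior adds to every gene in the other.

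PER1 (minus strand of chromosome 17, 8140472 to 8156506) was at 14.7 CPM at low glucose (13.1 to 16.3, 318 estimated counts) and 12.3 CPM at high glucose (10.9 to 13.98, 240 estimated counts). Its log2 ratio was -0.25 (-0.50 to -0.0028), and 12.03% of the genes in the same range were as low or lower. When libraries were scaled by their totals alone the interval held 0, with an upper limit of 0.0016. PER2 (minus strand of chromosome 2, 238244038 to 238290102) was at 28.7 CPM (26.6 to 31.1) in low glucose and 29.4 CPM (27.0 to 31.9) in high glucose, a log2 ratio of 0.03 (-0.13 to 0.20). The 3 PER genes together summed to 52.4 CPM in the low and 47.7 CPM in the high glucose library, a log2 ratio of -0.14 (-0.26 to -0.0098). Without PER3 the interval of the sum held 0, at -0.06 (-0.19 to 0.08).

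CRY1 (minus strand of chromosome 12, 106991364 to 107093829) and CRY2 (plus strand of chromosome 11, 45847118 to 45883248) encode the cryptochromes, the main inhibitors of the CLOCK and BMAL1 pair. CRY1 was at 24.2 CPM at low glucose (22.2 to 26.4) and 21.8 CPM at high glucose (19.8 to 24.0), a log2 ratio of -0.15 (-0.34 to 0.04). CRY2 went the other way in value, with 14.1 CPM (12.6 to 15.8) and 15.8 CPM (14.1 to 17.7), a log2 ratio of 0.16 (-0.07 to 0.39). Each interval held 0, and the sum of both genes was 38.4 CPM in the low and 37.6 CPM in the high glucose library, a log2 ratio of -0.03 (-0.17 to 0.12).

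The REV-ERB genes encode nuclear receptors that bind heme and repress ARNTL. NR1D1 (minus strand of chromosome 17, 40092787 to 40100725) was at 15.3 CPM at low glucose (13.7 to 17.0) and 15.0 CPM at high glucose (13.3 to 16.8), with a log2 ratio of -0.03 (-0.27 to 0.20). NR1D2 (plus strand of chromosome 3, 23945260 to 23980618) was at 40.8 CPM (38.2 to 43.6) and 39.6 CPM (36.9 to 42.5), with a log2 ratio of -0.04 (-0.18 to 0.10). Values of both genes in the libraries overlapped within counting error, as did their sum, at 56.1 and 54.6 CPM with a log2 ratio of -0.04 (-0.16 to 0.08). The exons of NR1D1 share 263 bases, 9.49% of their length, with the thyroid hormone receptor gene THRA on the opposite strand, and unstranded reads from that stretch cannot be assigned by strand. THRA was at 50.5 CPM in the low and 57.9 CPM in the high glucose library, a log2 ratio of 0.20 (0.08 to 0.32). Of the remaining overlaps with exons of other genes, the longest was 748 bases of NPAS2 with the antisense gene AC016738.1, which had no value in the table. Of the 20 estimated counts of the 10 genes, 19 lay within 0.05 of a whole number. The exception was NR1D1 in high glucose, at 291.15, and how this value arose was not tested.

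**Figure D2:**
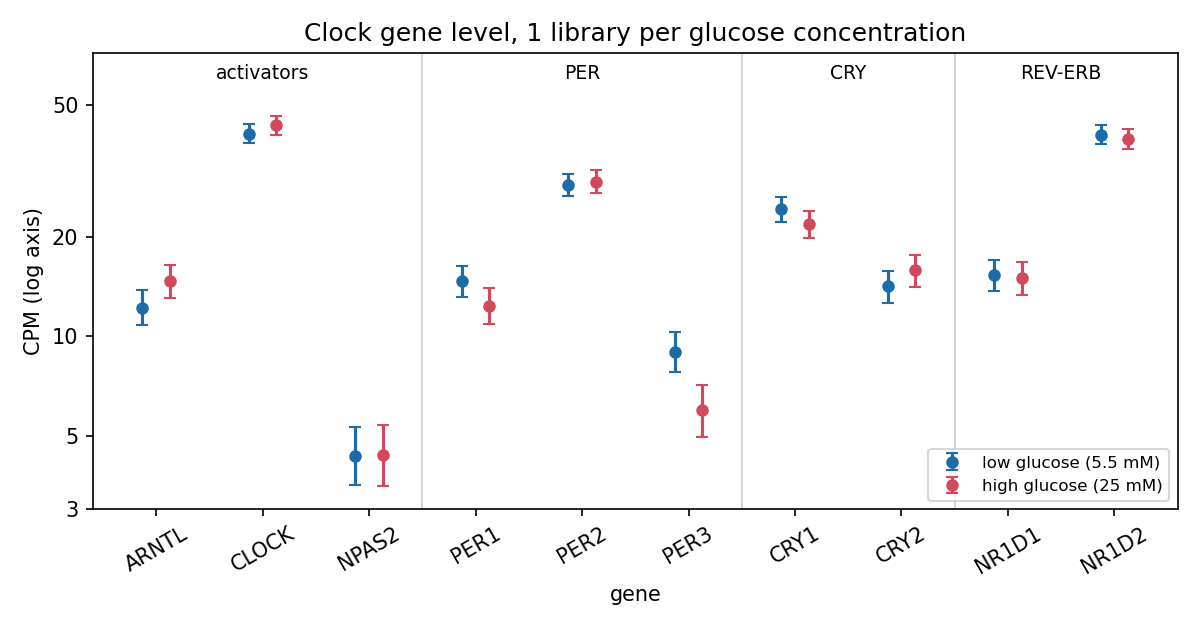
CPM (y axis, log scale) of each clock gene (x axis, by arm) in the low and high glucose libraries, with 95% Wilson intervals for counting error as bars and 1 library per point. PER3 is the gene whose intervals are apart, at 8.99 and 5.96 CPM, while the values of the others lie close together.

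Across the 10 genes, the interval of the log2 ratio left out 0 for 3, of which ARNTL was higher and PER1 and PER3 were lower in high glucose. Of the 13052 genes that averaged 1 CPM or more, 15.8% had an interval above 0 and 16% had one below 0. Over the 5803 genes within the range of the clock genes, a comparison added after the data were seen, these shares were 9.63% and 13.7%. The count of 3 in 10 was thus near the background of genes at large. A log2 ratio of at least 0.5 was reached by 0 of the 10 genes, against 1.65% of the genes that averaged 1 CPM or more and 0.844% of those in the range. A log2 ratio of at most -0.5 was reached by 1 of the 10, PER3, against 3.72% and 2% of genes. The median log2 ratio of the 10 genes was -0.01, beside -0.0064 over the 13052 genes, and 5 genes had a ratio above 0 and 5 below. Their median ratio in size was 0.12, the same to 2 decimals as that of the genes in the range, at 0.12.

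**Figure D3:**
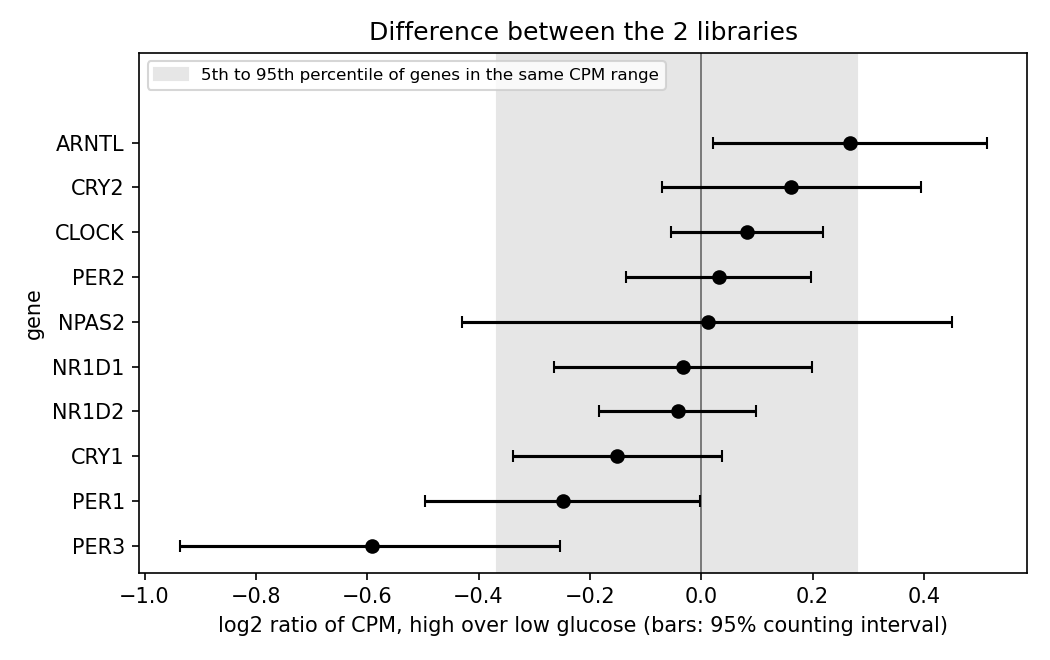
Log2 ratio of CPM in high over low glucose (x axis) for each clock gene (y axis), with 95% exact binomial counting intervals as bars, over a grey band from the 5th to the 95th percentile of the 5803 genes in the same CPM range (-0.37 to 0.28). PER3, at -0.59, lies outside the band, and the other 9 genes lie inside it.

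Levels of different genes were compared per kb of annotated exons (GENCODE v29), on the same CPM scale. The order of mean level ran from NR1D2 (6.91 CPM per kb) and NR1D1 (5.46) through CRY1 (4.55), PER2 (4.22), CLOCK (3.59), CRY2 (2.42), ARNTL (2.0), PER1 (1.93) and PER3 (0.923) to NPAS2 (0.349). NR1D2 was above NR1D1 in both libraries beyond counting error, and PER3 and NPAS2 were each below the gene before them in both. CLOCK stood apart from CRY2 in the same way. Neighbours whose intervals overlapped in both libraries were CRY1 and PER2, CRY2 and ARNTL, and ARNTL and PER1. NR1D1 and CRY1 overlapped in low glucose alone, and PER2 and CLOCK in high glucose alone. With the longest transcript as the length, CRY1 and NR1D1 exchanged places and the other 8 genes kept theirs. The median coding transcript, which for ARNTL, NPAS2 and PER1 is a fragment of 773, 700 and 589 bases, put 9 of the 10 genes elsewhere, with PER1 at the top and PER3 at the bottom.

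**Figure D4:**
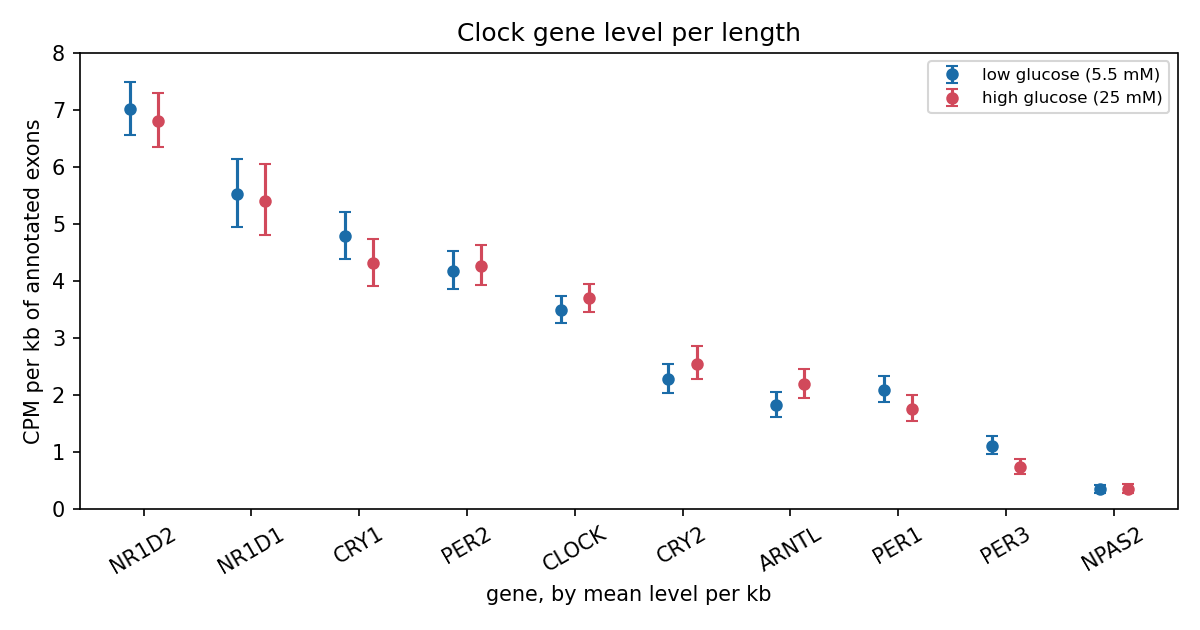
CPM per kb of annotated exons (y axis) for the clock genes in order of mean level (x axis) in each library, with 95% Wilson intervals as bars. The REV-ERB genes are at the top, at 6.91 and 5.46 CPM per kb on average, and PER3 and NPAS2 at the bottom, at 0.923 and 0.349.

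Per kb of annotated exons, 1 relative in each family stood above the others. CLOCK was 10.1 times NPAS2 per kb in low glucose (8.14 to 12.6) and 10.6 times in high glucose (8.46 to 13.4). PER2 was 1.997 times PER1 (1.74 to 2.29) and 3.76 times PER3 (3.20 to 4.45) in low glucose. In high glucose these ratios were 2.43 (2.08 to 2.83) and 5.80 (4.75 to 7.15). CRY1 was 2.10 times CRY2 in low glucose (1.82 to 2.42) and 1.69 times in high glucose (1.46 to 1.96). NR1D1 was 0.787 of NR1D2 (0.691 to 0.894) and 0.792 (0.689 to 0.907) in turn. The leading relative was the same in both libraries. It was also the same with the longest transcript as the length, which lowered the ratio of CLOCK to NPAS2 to 7.33 and 7.70. With the median coding transcript, a length added here after the data were seen, PER1 led its family instead, as the ratio of PER2 to PER1 was 0.333 in low and 0.405 in high glucose, and CLOCK was 1.73 and 1.82 times NPAS2.

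The change of such a ratio between the libraries depends on neither gene length nor library scaling. Over the 6 pairs, its interval left out 0 for 2, PER2 to PER3 and CRY1 to CRY2. The share of other gene pairs with such an interval was not computed. The PER pairs share genes, and the change in PER2 to PER3 was mostly that of PER3 (-0.59, against 0.03 for PER2). The log2 ratio of PER2 to PER3 was greater by 0.62 in high glucose (0.25 to 0.99), and that of CRY1 to CRY2 fell by 0.31 (-0.61 to -0.02). For PER2 to PER1 the change was 0.28 (-0.01 to 0.57), and for PER1 to PER3 it was 0.34 (-0.07 to 0.75). CLOCK to NPAS2 changed by 0.07 (-0.37 to 0.51) and NR1D1 to NR1D2 by 0.0093 (-0.26 to 0.28). These intervals were not adjusted for the number of pairs. The SD of the log2 ratio over genes in the same CPM range was 0.21, which gives 0.30 for the difference of 2 such genes if they vary independently. The change in CRY1 to CRY2 was about that SD and the change in PER2 to PER3 exceeded it. The SD pools genes of all levels in the range and was not computed at the level of each pair.

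**Figure D5:**
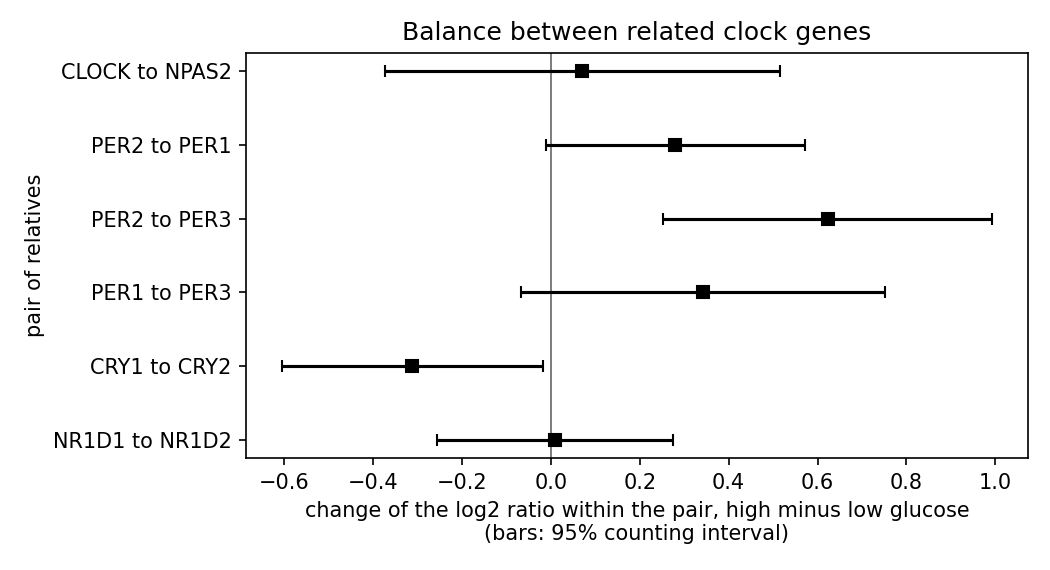
Change of the log2 ratio between related clock genes, high minus low glucose (x axis), for 6 pairs (y axis), with 95% counting intervals as bars. The pairs PER2 to PER3, at 0.62, and CRY1 to CRY2, at -0.31, have intervals that leave out 0.

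Other genes of the clock pathway were taken from a list of 28, of which 26 had a value and 23 averaged 1 CPM or more. Of these 23, the interval was above 0 for 4 (HDAC3, PRKAA1, PRKAA2 and CUL1) and below 0 for 5 (DBP, NFIL3, BHLHE40, PPARGC1A and NAMPT), which is near the 15.8% and 16% of all genes averaging 1 CPM or more. The interval held 0 for ARNTL2, TEF, CIART, CSNK1D, CSNK1E, FBXW11, BTRC, TIMELESS, GSK3B, NRIP1, NCOR1, SIRT1, USP2 and SKP1, while RORA, HLF and BHLHE41 were under 1 CPM and RORB was 1 of 2 with no value. The median log2 ratio of the 23 genes was -0.0071, beside -0.0064 over all such genes. A log2 ratio of at least 0.5 was reached by 0 and one of at most -0.5 by 2, against 1.65% and 3.72% of all such genes. NFIL3, which competes for the D-box, was at 9.77 CPM in the low and 6.48 CPM in the high glucose library, a log2 ratio of -0.59 (-0.92 to -0.27). BHLHE40, an E-box repressor, was at 166.5 CPM and 114.6 CPM, a log2 ratio of -0.54 (-0.62 to -0.46). Of all genes averaging at least 10 CPM, as BHLHE40 did, 0.824% had a log2 ratio of 0.5 or more in size. The lowest level on the list was that of HLF, a D-box activator, at 0.242 CPM in low and 0.166 CPM in high glucose, from 5 and 3 counts. The highest level was that of SKP1, a subunit of ubiquitin ligases, at 288 CPM on average.

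ARNTL2, the close relative of ARNTL, was picked out after its values were seen. It was at 43.8 CPM in the low and 47.2 CPM in the high glucose library, a log2 ratio of 0.11 (-0.03 to 0.24). Per kb of exons it was at 6.28 and 6.76 CPM, which is 3.46 times ARNTL in low glucose (3.02 to 3.98) and 3.09 times in high glucose (2.71 to 3.55). With the longest transcript as the length, ARNTL2 was still above ARNTL, by 2.04 and 1.83 times.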

How the data were processed

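Polyadenylated RNA was sequenced from 1 low and 1 high glucose library. The authors trimmed reads with Trim Galore 0.5.0, aligned them to human assembly 38 (GENCODE v28) with STAR 2.6.0, estimated counts with RSEM 1.3.1, dropped genes with under 1 count in all, and used edgeR for TMM scaling. The deposited table gives CPM and log2 CPM of 19989 genes. It also holds the authors' own mean, ratio and log2 difference columns, which were not used. The lowest CPM is a prior of 0.25 counts, and steps between low values gave estimated counts (0.0460 and 0.0514 CPM per count). Without the prior the CPM of a library add to 1000000, so TMM factors (trims of 0.3 and 0.05) were computed, at 0.998 and 1.002. Under 10 CPM, 75.3% and 76.1% of values were within 0.05 of whole counts, so no count model beyond the binomial intervals was run. The exact binomial intervals used estimated counts rounded to whole numbers.

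Calculations used Python 3.11.15, numpy 2.4.6, pandas 2.3.3 and scipy 1.17.1, and were tested on simulated libraries. Change intervals within pairs are normal approximations on log counts. The genes, lists and thresholds were chosen with earlier results of these data known. All 10 clock genes are named. Values are also given for ARNTL2 and for listed pathway genes whose log2 ratio was 0.5 or more in size or that had the lowest or highest level. Of the genes sharing exons, UTS2, THRA and AC016738.1 are named. Another 2 genes of the pathway list entered no count and are not reported here. Alternatives were library totals, median-of-ratios factors, prior removal, a pseudocount of 1 CPM, centring, the deposited log2 columns, other lengths and other filters.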

Additional observations from a re-analysis of the deposited data

How the results depend on the processing

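Of 60 log2 ratios of clock genes under an alternative, 10 of them taken from the deposited log2 values (added after the data were seen), 0 changed sign. Of the 60, 20 had a counting interval of their own, and 2 of the 20 no longer left out 0, PER1 under library totals (-0.24, -0.49 to 0.0016) and median-of-ratios factors (-0.24, -0.49 to 0.0014), which brought the count of genes with an interval off 0 from 3 to 2. Scaling, centring or prior removal moved a log2 ratio by at most 0.0063, and with a pseudocount of 1 CPM PER3 was at -0.52. The median of the 10 genes lay between -0.0061 and -0.01 under the other scalings, prior removal and the pseudocount. It was -0.02 after centring and 0.01 without PER3, both chosen after the data were seen. The share of all genes with an interval off 0 was 31.7% at a mean of at least 1 CPM, 38.4% at 10 CPM and 22.3% with no filter. For log2 ratios of 0.5 or more in size it was 5.38%, 0.824% and 25.9%. The order of levels changed for 2 genes with the longest transcript and for 9 with the median coding transcript. Of the ratios between relatives, 5 of 12 left their counting interval with the longest transcript and 10 of 12 with the median coding transcript, under which PER2 to PER1 was reversed, at 0.333 and 0.405. Depth limits NPAS2 most, where a log2 difference of up to 0.45 could not be seen. No paired analysis was possible because there was 1 library per condition.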
